A study of Mus musculus with 6 samples.

Results

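The genes described here encode the kinetochore, the assembly on centromeric chromatin that holds chromosomes on spindle microtubules, and the spindle checkpoint that reads the state of that attachment. They were chosen by name: 18 genes have a symbol made of Cenp and a letter, and 24 more were listed by name, of which 23 were found under the listed symbol and 1, Ska2, under the older symbol Fam33a. Together they are 42 of the 29955 genes in the deposited table, and all 42 passed the filter on low reads and were tested. RNA was sequenced from 3 libraries of Rnf40+/+ and 3 libraries of Rnf40-/- mouse embryonic fibroblasts (MEFs), all at passage 3. The MEFs came from embryos homozygous for an Rnf40 allele with loxP sites around exons 3 and 4, which also carried Rosa26-CreERT2, a broadly expressed Cre recombinase that tamoxifen activates. Deletion was induced with 250 nM 4-hydroxytamoxifen (4-OHT) for 5 days, followed by 3 days without it. Whether the Rnf40+/+ cells received 4-OHT is not given in the sources used here, so the deletion and the treatment cannot be told apart. Nothing in the labels says that the 3 libraries of a genotype came from separate cultures, and the p-values therefore measure the spread between these libraries.

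RNF40 is an E3 ubiquitin ligase that, with RNF20, places the single ubiquitin on histone H2B known as H2Bub1. The kinetochore is built in layers. The histone variant CENP-A marks the centromere, a constitutive network of CENP proteins sits on it through the whole cell cycle, and the outer kinetochore assembles on that network as cells enter mitosis and binds microtubules. At kinetochores without microtubules the checkpoint kinases and their partners recruit BUB and MAD proteins, which form an inhibitor of the anaphase-promoting complex (APC/C) and so delay the separation of sister chromatids. Transcripts of many of these genes accumulate in the G2 and M phases, and cells outside the cycle hold little of them.

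The values are normalized counts, that is, reads on a gene divided by 1 size factor per library. Libraries held between 17053436 and 26344170 reads on genes, and 3 reads, taken as the floor of detection, corresponded to normalized counts between 2.40 and 3.58. The targeted gene, Rnf40, stood at 1278, 1195 and 1096 in Rnf40+/+ and at 439, 519 and 487 in Rnf40-/-, 40.5% of the Rnf40+/+ mean. Markers of fibroblasts were abundant in both genotypes, with summed normalized counts of 369313 to 428246 in Rnf40+/+ and 195529 to 209542 in Rnf40-/-, and 8 of the 10 markers were lower. Summed macrophage markers (8 genes, 2 lower and 2 higher) ranged from 4981 to 9033 in Rnf40+/+ and from 3301 to 3621 in Rnf40-/-. Summed muscle markers (4 genes, 2 lower, Myod1 at 0 in all libraries) ranged from 1707 to 4881 and from 436 to 496. Summed endothelial markers (5 genes, 1 lower and 3 higher) overlapped, at 138 to 279 and 225 to 315. The sum hides opposite changes. The means of Pecam1 (3.75 to 27.6), Cdh5 (2.76 to 31.6) and Kdr (27.4 to 84.5) were higher in Rnf40-/-, and that of Emcn (126 to 55.3) was lower. In Rnf40+/+, Pecam1 and Cdh5 were near the floor. Summed epithelial markers (5 genes) also overlapped, at 434 to 779 and 559 to 792. Of these, Krt18 and Krt19 were tested and neither was lower or higher, whereas Epcam, Cdh1 and Krt8 did not pass the filter on low reads. Aif1 among the macrophage markers and Myog and Myod1 among the muscle markers were not tested either. Erythroid markers stayed at or below 8.50 with Hbb-b1 at 0. Here lower and higher mean an adjusted p under 0.05 in limma, which 24.1% and 23.3% of all genes tested reached. The part of these markers in the results that follow was not tested.

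Most of the kinetochore and checkpoint genes had less RNA in Rnf40-/- MEFs. Of the 42 genes, 34 were lower (81.0%), none was higher and 8 did not pass an adjusted p under 0.05 in limma, where 24.1% of all 16378 genes tested were lower and 23.3% were higher. At an unadjusted p under 0.05, 35 genes were lower and 0 higher in limma, where 27.5% of all genes tested were lower and 26.4% higher. The counts were 35 and 0 in edgeR (27.4% and 26.6% of all genes) and 34 and 0 in DESeq2 (25.5% and 24.7%). An adjusted p under 0.05 together with a log2 fold change below -1 was reached by 27 genes, and with one below -2 by 14, against 5.72% and 1.12% of all genes tested. In 37 genes every Rnf40-/- library was below every Rnf40+/+ library, against 28.7% of all genes tested, and in 0 genes was every one above, against 27.8%. The median log2 fold change was -1.44 over the 42 genes and -0.0035 over all genes tested, and at the median gene the Rnf40-/- mean was 36.1% of the Rnf40+/+ mean. In these bulk libraries, fewer cycling cells, fewer cells in G2 and M phase and less RNA per such cell cannot be told apart. Mki67, which cycling cells express, had 477 to 581 normalized counts in Rnf40+/+ and 62.6 to 77.5 in Rnf40-/-, a log2 fold change of -2.84 ± 0.14 (SE), and its relation to these genes was not tested.

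**Figure D1:**
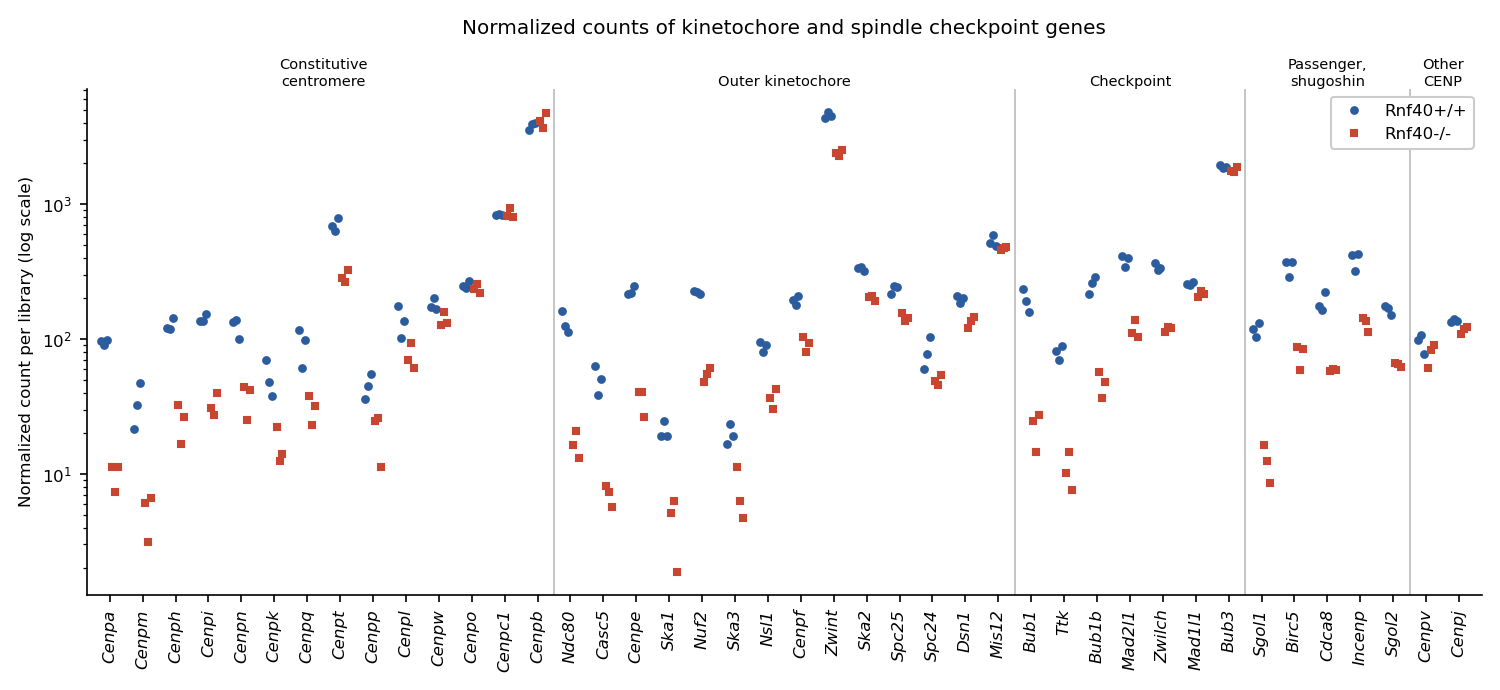
Normalized counts (log axis) of the 42 genes in each of the 3 Rnf40+/+ libraries (circles) and 3 Rnf40-/- libraries (squares), grouped by role and ordered by fold change within a role. The symbols of the genotypes are apart for 37 genes and overlap for 5, among them Cenpb, Cenpc1, Cenpo and Bub3.

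Over all 42 genes, the median log2 difference from the Rnf40+/+ mean was -1.27, -1.48 and -1.51 in the 3 Rnf40-/- libraries. It lay between -0.04 and 0.03 in Rnf40+/+. When the genes are divided by their call in these same libraries, the medians of each part follow from that division and are no further evidence. The median of the 34 genes that fell was -1.53, -1.60 and -1.79 in Rnf40-/-, and lay between -0.07 and 0.05 in Rnf40+/+. The other 8 genes had medians between -0.16 and -0.11 in Rnf40-/- and between -0.02 and 0.03 in Rnf40+/+. The genes lie on 19 chromosomes, with at most 6 on any one (41 genes with a position in the mm9 annotation).

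The promoters of these genes were read for elements that the cell cycle is known to use. The cell cycle genes homology region (CHR) is bound by the MuvB complexes, DREAM in resting cells and B-MYB with FOXM1 in G2 and M phase, often beside CCAAT boxes bound by NF-Y. Promoter windows of 250 bases before and 50 after the annotated start (RefSeq, GRCm38.p6) were at hand for 37 of the 42 genes. The stretches of 100 bases before and 30 after the start are given on the strand of the gene for 5 genes that fell with a CHR (TTTGAA or TTCGAA, on either strand) near the start and for 3 that did not pass the test. Capitals mark the CHR, and TTCAAA is TTTGAA on the opposite strand.
Bub1, chr2:127831830-127831959, minus strand: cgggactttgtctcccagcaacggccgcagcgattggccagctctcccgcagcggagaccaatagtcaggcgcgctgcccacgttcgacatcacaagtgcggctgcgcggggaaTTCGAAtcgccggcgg
Ttk, chr9:83834589-83834718, plus strand: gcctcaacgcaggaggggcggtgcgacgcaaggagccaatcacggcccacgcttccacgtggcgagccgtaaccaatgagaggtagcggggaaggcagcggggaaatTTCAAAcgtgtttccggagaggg
Cenpa, chr5:30666786-30666915, plus strand: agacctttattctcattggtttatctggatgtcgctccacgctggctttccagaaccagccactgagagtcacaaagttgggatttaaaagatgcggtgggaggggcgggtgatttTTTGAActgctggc
Cdca8, chr4:124936888-124937017, minus strand: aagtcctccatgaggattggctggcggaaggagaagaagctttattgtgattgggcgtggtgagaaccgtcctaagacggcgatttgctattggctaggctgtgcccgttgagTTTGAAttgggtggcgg
Cenpn, chr8:116921640-116921769, plus strand: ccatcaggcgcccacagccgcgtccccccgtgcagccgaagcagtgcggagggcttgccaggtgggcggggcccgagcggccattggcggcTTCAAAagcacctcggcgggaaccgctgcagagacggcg
Bub3, chr7:131560270-131560399, plus strand: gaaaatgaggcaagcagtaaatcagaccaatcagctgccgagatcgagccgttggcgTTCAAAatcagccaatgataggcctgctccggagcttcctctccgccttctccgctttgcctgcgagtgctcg
Mad1l1, chr5:140321523-140321652, minus strand: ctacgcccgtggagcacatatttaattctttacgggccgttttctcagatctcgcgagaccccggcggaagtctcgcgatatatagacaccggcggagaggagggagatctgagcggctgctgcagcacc
Cenpb, chr2:131180038-131180167, minus strand: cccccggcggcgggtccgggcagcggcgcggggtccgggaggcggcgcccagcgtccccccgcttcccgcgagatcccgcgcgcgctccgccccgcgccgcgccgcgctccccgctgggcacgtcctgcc
The 5 genes that fell were chosen because they have a CHR. They carry it at different distances, from 9 bases before the start in Cenpn to 17 bases after it in Cenpa. Cenpe, Cenph, Birc5, Cenpi and Nuf2, not shown, had log2 fold changes below -2 and no CHR in the window. Bub3, which did not pass the test, also has one, which begins 43 bases before the start, whereas the shown stretches of Mad1l1 and Cenpb hold none.

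A CHR stood somewhere in the window of 16 of 37 genes (43.2%), against 21.7% of all 27025 genes with a window. The match is a description of letters and not of binding, and its relation to the fold changes was not tested. Among genes that fell 15 of 29 had one, and among genes that did not pass the test 1 of 8, which is Bub3. Within 50 bases of the start, a distance chosen after the matches were seen, the share was 14 of 37 (37.8%) against 6.12% of all genes. That shorter stretch held a CHR in 4 of 6 checkpoint genes and 3 of 14 constitutive centromere genes. Among the 13 genes with a window and a log2 fold change below -2, 7 had it there. The palindrome TTTAAA, a weaker form of the element, stood in 8 of 37 windows (21.6%) against 14.9% of all genes.

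CCAAT on either strand occurred in 23 of 37 genes (62.2%) against 41.1% of all genes, and a CHR and a CCAAT together in 13 of 37 (35.1%) against 8.61%. E2F-like letters (TTCCCGCC, TTTCCCGC or TTTGGCGC, of which the first 2 share 7 letters where they overlap) occurred in 8 of 37 (21.6%) against 3.69%. Of those 8 genes, 7 belong to the constitutive centromere, and 0 of 6 checkpoint and 0 of 4 passenger and shugoshin genes had a match. E2F-like letters occurred in 5 of 29 genes that fell and in 3 of 8 that did not pass the test. Where these letters are absent, nothing is said of the factor.

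**Figure D2:**
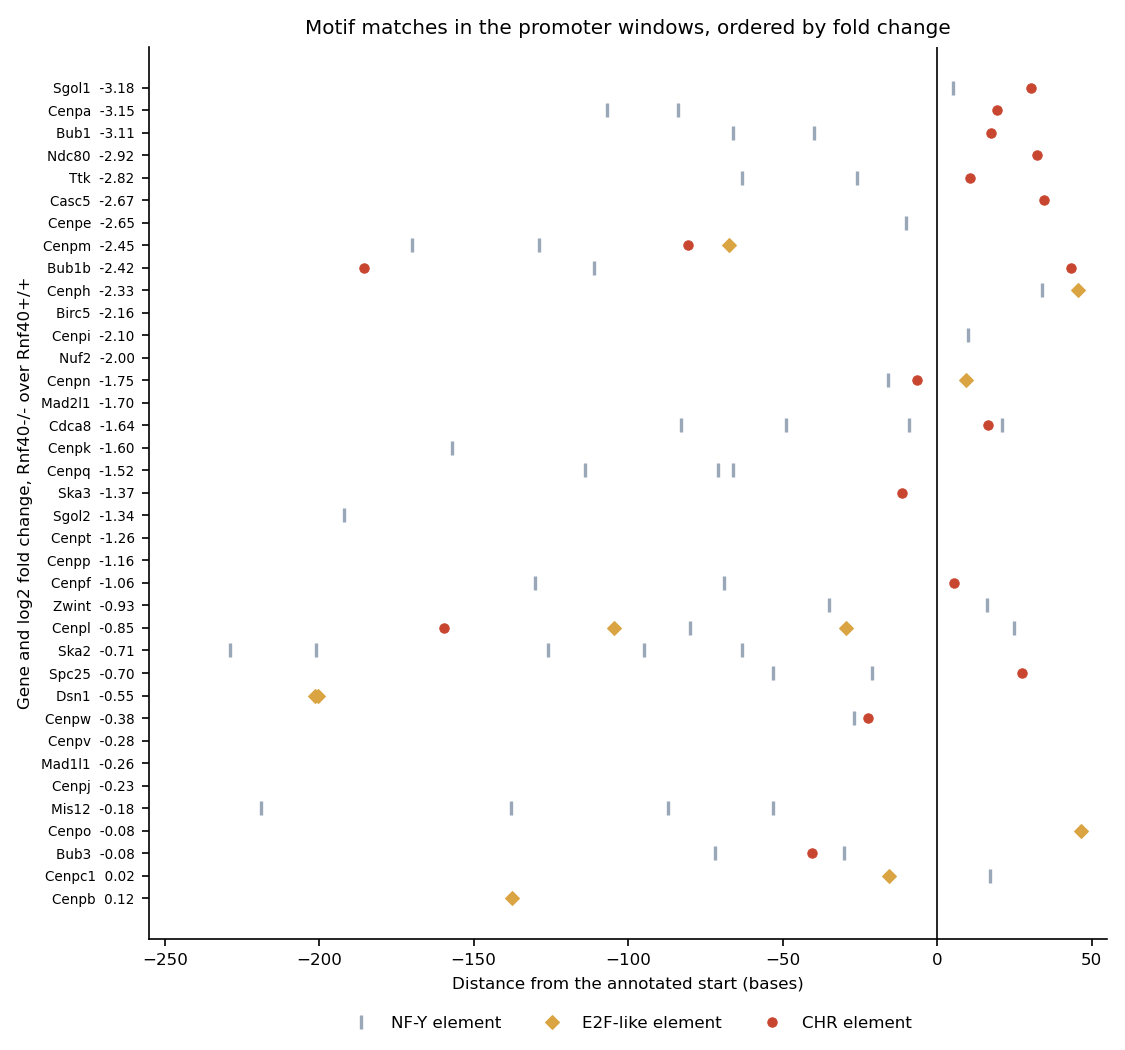
Distance in bases of each CHR, E2F-like and NF-Y (CCAAT) match from the annotated start (0) in the first RefSeq window of each of 37 genes, ordered by log2 fold change. Among genes with a log2 fold change below -2, 7 have a CHR in the 50 bases after the start, and the 8 genes at the bottom, which did not pass the test, have 1 CHR among them, in Bub3.

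In the constitutive centromere 11 of 14 genes were lower (78.6%, against 24.1% of all genes tested), with a median log2 fold change of -1.39. The largest fall was that of Cenpa, which encodes the centromeric histone H3 variant and lies at chr5:30969150-30977200 on the plus strand in mm9. Its normalized counts were 96.7, 89.7 and 97.4 in Rnf40+/+ and 11.2, 7.31 and 11.3 in Rnf40-/-. The genotypes did not overlap, and the Rnf40-/- mean was 10.5% of the Rnf40+/+ mean (log2 fold change -3.15 ± 0.27 (SE), adjusted p = 2.49e-06).

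Of the genes for other proteins that contact centromeric chromatin directly, Cenpb and Cenpc1 did not pass the test and Cenpn fell. CENP-B binds a short box in satellite DNA, and Cenpb, a gene of 1 exon, had 3513, 3898 and 3980 normalized counts in Rnf40+/+ and 4140, 3630 and 4700 in Rnf40-/-. The libraries overlapped, and the log2 fold change was 0.12 ± 0.09 (adjusted p = 0.282). CENP-C links CENP-A nucleosomes to the outer layer, and its gene, Cenpc1, had 824, 845 and 831 normalized counts in Rnf40+/+ and 815, 937 and 797 in Rnf40-/-. Its log2 fold change of 0.02 ± 0.08 (adjusted p = 0.828) was the smallest in size of the 42 genes, and it turned to -0.05 without the second Rnf40-/- library. CENP-N, which recognises the CENP-A nucleosome itself, is encoded by Cenpn, which had 99.8 to 138 normalized counts in Rnf40+/+ and 25.0 to 43.8 in Rnf40-/- (-1.75 ± 0.25, adjusted p = 0.000114).

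Within the subcomplexes of the network the genes moved unevenly. CENP-H, CENP-I, CENP-K and CENP-M form 1 subcomplex, and all 4 genes fell, with log2 fold changes of -2.45 for Cenpm, -2.33 for Cenph, -2.10 for Cenpi and -1.60 for Cenpk. Cenpm had 21.5, 32.6 and 47.1 normalized counts in Rnf40+/+ and 6.12, 3.13 and 6.61 in Rnf40-/-, the lowest from 3 reads, at the floor. Cenpl, the partner of Cenpn, fell by 0.85 on the log2 scale, and its transcript has matches of up to 78 bases to 8 other genes. In the subcomplex of CENP-O, CENP-P and CENP-Q, Cenpq had a log2 fold change of -1.52 and Cenpp one of -1.16. Cenpq shares 73 exon bases with Mut on the opposite strand, whose log2 fold change was 0.05. The Cenpp call was lost without the second Rnf40+/+ library (adjusted p = 0.0517) or the third Rnf40-/- library (0.0575). CENP-U and CENP-R complete the subcomplex, and their genes, Mlf1ip and Itgb3bp, had log2 fold changes of -0.75 (adjusted p = 0.0111) and 0.16 (adjusted p = 0.636). Cenpo had 246, 237 and 269 normalized counts in Rnf40+/+ and 236, 256 and 220 in Rnf40-/-. The genotypes of Cenpo overlapped (log2 fold change -0.08 ± 0.11, adjusted p = 0.592). Its exons share 1380 bases with Adcy3 on the opposite strand, whose log2 fold change was -0.29, and the strand used in counting is not given in the sources used here, so reads of these genes cannot be told apart.

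CENP-T and CENP-W have histone folds and dimerise, and CENP-T recruits the NDC80 complex. Cenpt had 687, 627 and 781 normalized counts in Rnf40+/+ and 281, 266 and 326 in Rnf40-/-, without overlap (-1.26 ± 0.11, adjusted p = 2.87e-06). Cenpw fell less, with 166 to 201 normalized counts in Rnf40+/+ and 126 to 158 in Rnf40-/- (-0.38 ± 0.14, adjusted p = 0.0465). That call was lost with edgeR (adjusted p = 0.0538) and with DESeq2 (adjusted p = 0.0897), and without replicate 1 or 2 of Rnf40+/+ or replicate 1 or 3 of Rnf40-/-, and over all alternatives the adjusted p of Cenpw ranged from 0.033 to 0.157.

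In the outer kinetochore 13 of 14 genes were lower (92.9%, against 24.1% of all genes tested), with a median log2 fold change of -1.16. Every Rnf40-/- library was below every Rnf40+/+ library in all 14, against 28.7% of all genes tested. The NDC80 complex, the rod that grips the microtubule, had larger falls at one end than at the other. Ndc80, at chr17:71845440-71876197 on the minus strand in mm9, had 162, 124 and 113 normalized counts in Rnf40+/+ and 16.3, 20.9 and 13.2 in Rnf40-/- (-2.92 ± 0.25, adjusted p = 2.3e-06). Nuf2, its partner at the microtubule-binding end, had 214 to 226 in Rnf40+/+ and 47.9 to 60.4 in Rnf40-/-, 24.8% of the Rnf40+/+ mean (adjusted p = 1.08e-06). The genes of the end that faces the centromere fell less, Spc25 from 216 to 246 normalized counts down to 136 to 155 (-0.70 ± 0.13) and Spc24 from 59.7 to 103 down to 45.9 to 53.8 (-0.65 ± 0.23, adjusted p = 0.034). Spc24 no longer passed the threshold when any library but the first Rnf40+/+ one was left out, with adjusted p-values in limma of 0.0557 to 0.138. Its transcript also holds stretches of up to 174 bases that match transcripts of 35 other genes at 95% identity or more, among them Ppp2ca with a mean of 5266 normalized counts. How reads from such stretches were assigned is not given in the sources used here, and their part in the smaller fall of Spc24 was not tested. On a scale of normalized counts per kilobase of transcript, the highest of the 4 NDC80 subunits was 2.59 times the lowest in Rnf40+/+ and 12.4 times in Rnf40-/-.

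The MIS12 complex joins the constitutive network to the NDC80 complex and to KNL1. Mis12 had 512, 594 and 489 normalized counts in Rnf40+/+ and 457, 471 and 477 in Rnf40-/-, and although these values did not overlap, the gene did not pass the test (-0.18 ± 0.09, adjusted p = 0.142). Its exons share 231 bases with Derl2 on the opposite strand, which had a log2 fold change of 0.09. The log2 fold change was -0.55 for Dsn1 and -1.26 for Nsl1, and both passed the test. The Nsl1 transcript has matches of up to 148 bases to 13 other genes. Per kilobase, the highest subunit of this complex, the partner gene Pmf1 included, was 7.62 times the lowest in Rnf40+/+ and 12.7 times in Rnf40-/-.

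KNL1 is the scaffold to which the BUB proteins bind. Its gene, Casc5, had 63.3, 38.8 and 50.3 normalized counts in Rnf40+/+ and 8.16, 7.31 and 5.67 in Rnf40-/-, 13.9% of the Rnf40+/+ mean (-2.67 ± 0.33, adjusted p = 4.79e-05). Zwint, which encodes a partner of KNL1, had the highest level of the 42 genes per kilobase and fell from 4318 to 4832 normalized counts to 2285 to 2512, 52.6% (-0.93 ± 0.07, adjusted p = 6.64e-07). The motor CENP-E carries chromosomes along microtubules, and Cenpe had 215 to 248 normalized counts in Rnf40+/+ and 26.4 to 40.8 in Rnf40-/- (-2.65 ± 0.20). Cenpf, whose product coats the outer plate and binds dynein regulators, fell less, from 177 to 208 down to 80.4 to 104 (-1.06 ± 0.15). The Cenpf transcript has matches of up to 190 bases to 10 other genes, and their part in its smaller fall was not tested.

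The SKA complex follows the tips of microtubules. Ska1 had 19.1, 24.5 and 19.2 normalized counts in Rnf40+/+ and 5.10, 6.26 and 1.89 in Rnf40-/-, the last of these from 2 reads, under the floor (-2.11 ± 0.47, adjusted p = 0.00311). Ska3 had 16.7, 23.5 and 19.2 against 11.2, 6.26 and 4.72 (-1.37 ± 0.42, adjusted p = 0.0187). Ska2 was the most abundant of the 3, with 336, 339 and 321 against 206, 210 and 192 (-0.71 ± 0.10, adjusted p = 0.000162). None of the 3 overlapped between genotypes, but the Ska3 call was lost without the second Rnf40+/+ library (adjusted p = 0.0737), the second Rnf40-/- library (0.0537) or the third Rnf40-/- library (0.0662).

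Of the 7 checkpoint genes, 5 were lower (71.4%, against 24.1% of all genes tested), and the median log2 fold change was -1.70. The kinases fell most. BUB1, which phosphorylates histone H2A at the centromere and brings in the MAD1 complex, is encoded at chr2:127626858-127657601 on the minus strand in mm9. Bub1 had 233, 192 and 159 normalized counts in Rnf40+/+ and 24.5, 14.6 and 27.4 in Rnf40-/-, 11.4% of the Rnf40+/+ mean (-3.11 ± 0.25, adjusted p = 1.7e-06). Ttk, which encodes MPS1, the kinase at the top of the checkpoint, had 81.2, 70.4 and 88.6 against 10.2, 14.6 and 7.55 (-2.82 ± 0.30, adjusted p = 1.2e-05). No library of one genotype reached the other in either gene.

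Among genes of the mitotic checkpoint complex, Bub1b, Mad2l1 and Cdc20 fell and Bub3 did not pass the test. Bub1b, which encodes BUBR1, had 216, 261 and 290 normalized counts in Rnf40+/+ and 57.1, 36.5 and 48.2 in Rnf40-/- (-2.42 ± 0.19, adjusted p = 1.36e-06). Mad2l1, which encodes MAD2, had 408, 342 and 398 against 111, 139 and 103 (-1.70 ± 0.14, adjusted p = 1.81e-06). Bub3, the WD-repeat partner of both BUB1 and BUBR1, lies at chr7:138703905-138715412 on the plus strand in mm9. It had 1931, 1861 and 1880 normalized counts in Rnf40+/+ and 1763, 1724 and 1886 in Rnf40-/-, with overlap (-0.08 ± 0.06, adjusted p = 0.342). Cdc20, which lies outside the 42 genes, had 662, 485 and 616 against 113, 76.2 and 85.0 (-2.68 ± 0.16, adjusted p = 1.8e-07).

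Mad1l1, whose product tethers MAD2 to the kinetochore, had 256, 251 and 266 normalized counts in Rnf40+/+ and 203, 226 and 215 in Rnf40-/-. These did not overlap, and the log2 fold change of -0.26 ± 0.11 missed the threshold (adjusted p = 0.0682). Zwilch belongs to the complex with ROD and ZW10 that brings dynein and MAD1 to kinetochores, and it had 322 to 365 normalized counts against 112 to 123 (-1.51 ± 0.12, adjusted p = 1.15e-06). Its exons overlap those of Lctl on the opposite strand over 254 bases, a gene with a mean of 22.9 normalized counts.

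The chromosomal passenger complex destabilises faulty attachments, and shugoshins protect cohesion at centromeres. All 5 of these genes were lower, against 24.1% of all genes tested, with a median log2 fold change of -1.64. Sgol1, which encodes shugoshin 1 and lies at chr17:53814111-53828658 on the minus strand in mm9, had the largest log2 fold change in size of the 42 genes on the log2(normalized count + 1) scale. By the ratio of means Cenpa fell slightly further, and with a pseudocount of 10 Bub1 did (-2.68 against -2.52 for Sgol1). It had 118, 104 and 132 normalized counts in Rnf40+/+ and 16.3, 12.5 and 8.50 in Rnf40-/-, 10.5% of the Rnf40+/+ mean (-3.18 ± 0.27, adjusted p = 2.57e-06). Sgol2 fell least in this class, with 177, 169 and 152 against 66.3, 65.7 and 62.3 (-1.34 ± 0.15, adjusted p = 2.28e-05). Its exons share 2455 bases with Kctd18 on the opposite strand, whose log2 fold change was 0.20, and reads of this pair cannot be told apart.

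Among the passenger proteins, Birc5, which encodes survivin, fell from 290 to 371 normalized counts to 58.4 to 86.7 (-2.16 ± 0.17). The Birc5 transcript has matches of up to 169 bases to 8 other genes. Cdca8, which encodes borealin, fell from 163 to 221 to values between 58.1 and 59.5 (-1.64 ± 0.17). Incenp, the scaffold of the complex, fell from 321 to 430 to between 112 and 143 (-1.57 ± 0.15). The log2 fold changes of these 3 subunits spanned 0.60, and those of the 4 NDC80 subunits spanned 2.27. Cdca8 shares 232 exon bases with 9930104L06Rik on the opposite strand, whose log2 fold change was -0.22.

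The name CENP also covers 2 proteins with other roles, and neither gene passed the test. CENP-J builds centrioles, and Cenpj had 134, 141 and 135 normalized counts in Rnf40+/+ and 109, 118 and 123 in Rnf40-/-, without overlap (-0.23 ± 0.14, adjusted p = 0.205). CENP-V has been linked to centromeric heterochromatin and microtubules, and Cenpv had 97.9, 107 and 77.5 against 61.2, 82.4 and 89.7, with overlap (-0.28 ± 0.20, adjusted p = 0.287).

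**Figure D3:**
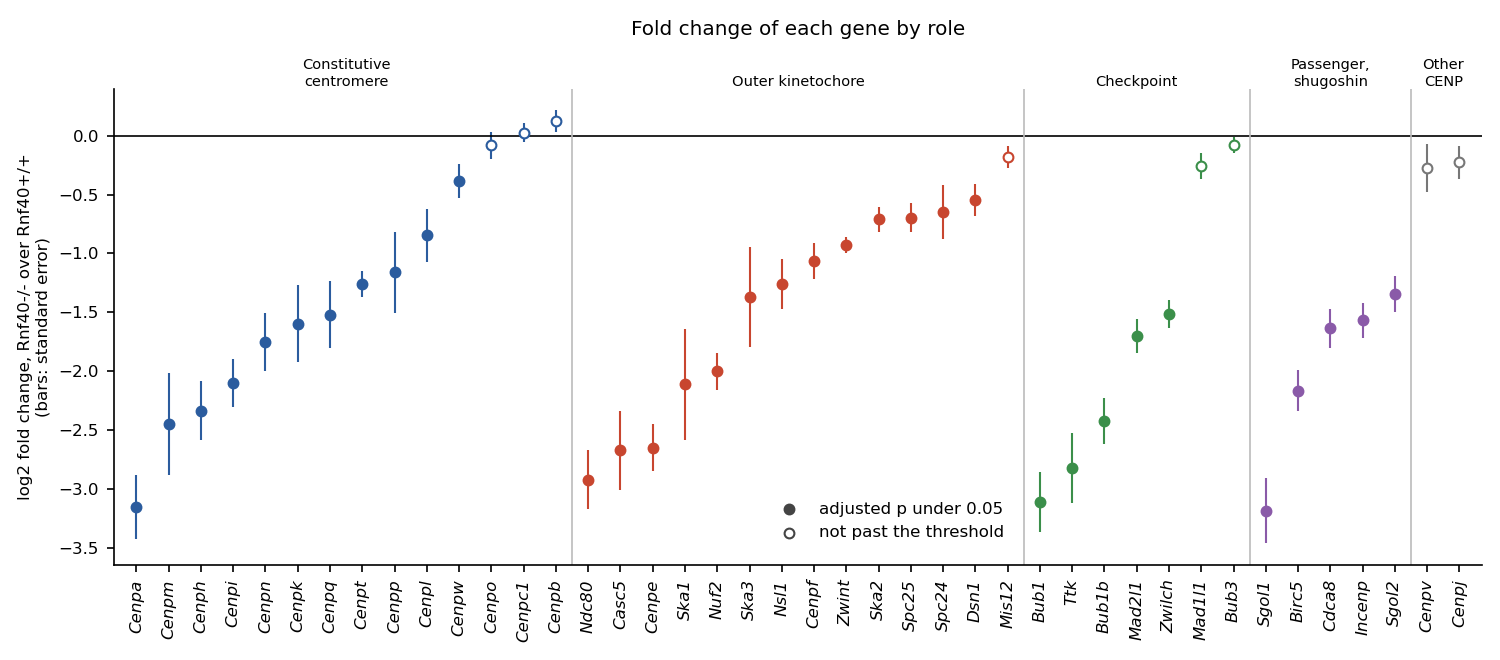
Log2 fold change of each of the 42 genes (Rnf40-/- over Rnf40+/+, points) with its standard error from limma (bars), by role, with filled points for an adjusted p under 0.05. Each of the first 4 roles holds genes with falls below -2, and the open points among them are Cenpo, Cenpc1, Cenpb, Mis12, Mad1l1 and Bub3.

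The proportion of partners of 1 complex or step is described for 7 pairs, which were chosen with results of these data known. Each difference in ratio restates the difference between the fold changes of its 2 genes and is no further evidence. The ratios were computed in each library as differences of log2(normalized count + 1). With 3 libraries against 3, an exact two-sided permutation test cannot go below p = 0.1, so no test of a ratio is given. The ratio of Bub1 to Bub3 was -3.05, -3.27 and -3.56 in Rnf40+/+ and -6.11, -6.79 and -6.06 in Rnf40-/-, a difference of -3.03. For Bub1b to Bub3 the mean ratio went from -2.89 ± 0.24 to -5.24 ± 0.30 (SD, n = 3), a difference of -2.34. Both ratios were lower in 3 of 3 Rnf40-/- libraries.

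Mad2l1 and Mad1l1 exchanged their order in counts not scaled for length. Their log2 ratio was 0.67, 0.44 and 0.58 in Rnf40+/+ and -0.86, -0.70 and -1.06 in Rnf40-/-, a difference of -1.44 with no overlap. Per kilobase, Mad2l1 was at 222 and Mad1l1 at 97.5 normalized counts in Rnf40+/+, and at 68.2 and 81.4 in Rnf40-/-. The order thus turned on both scales.

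Cenpa to Cenpb went from a mean log2 ratio of -5.31 ± 0.13 to -8.58 ± 0.18 (SD, n = 3), a difference of -3.27. Ndc80 to Mis12 was at -1.65, -2.25 and -2.11 in Rnf40+/+ and at -4.72, -4.43 and -5.07 in Rnf40-/-, a difference of -2.74. Ska1 to Ska2 went from -3.93 ± 0.17 to -5.34 ± 0.64, a difference of -1.40. These 3 ratios did not overlap between genotypes, and Ska3 to Ska2, with a difference of -0.66, did. Both SKA ratios rest on few reads and shrink to -0.42 and -0.10 with a pseudocount of 10, at which the log2 fold change of Ska1 itself is -1.11.

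**Figure D4:**
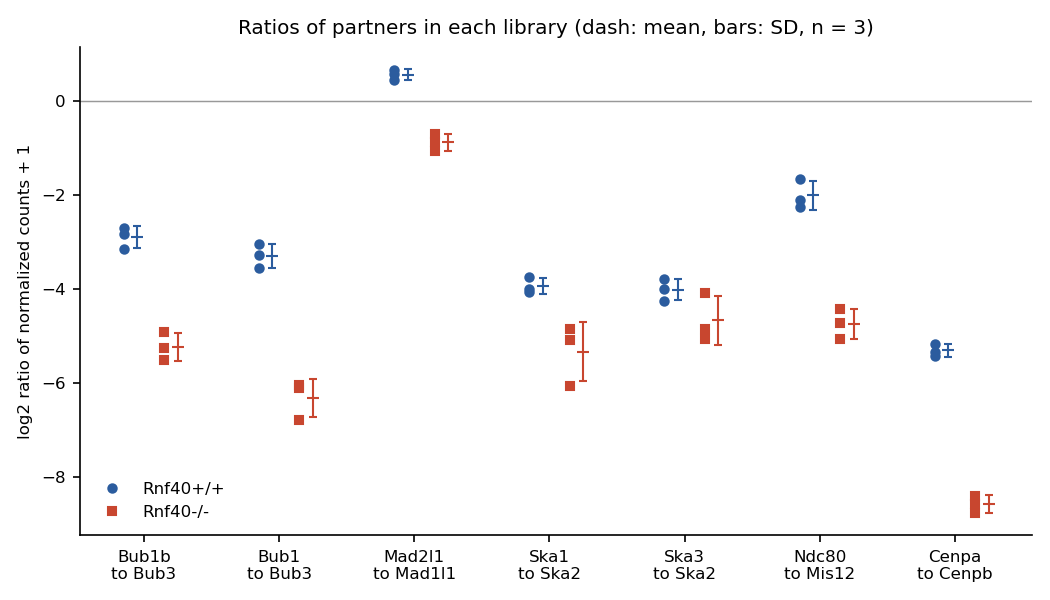
Log2 ratio of the normalized counts (plus 1) of 7 pairs of genes in each Rnf40+/+ library (circles) and Rnf40-/- library (squares), with the mean and SD (n = 3) beside them. The genotypes are apart for 6 pairs and overlap for Ska3 to Ska2, and the Mad2l1 to Mad1l1 ratio crosses 0.

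The levels of genes that fell and of genes that did not pass were set side by side per kilobase, without a test. The 33 genes that fell and have a transcript length had a median of 60.5 normalized counts per kilobase in Rnf40+/+, against 137 for the 8 that did not pass the test. Across the 41 genes with a length, the log2 level per kilobase in Rnf40+/+ and the log2 fold change had r = 0.46 and rho = 0.46, a description across genes of the same libraries, since the Rnf40+/+ level enters both. The ranges overlapped widely, as Zwint, the most abundant per kilobase at 1697, fell, and Cenpj did not pass the test at 31.3. In 7 of the 42 genes at least 1 library had fewer than 10 reads.

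Genes that work with the kinetochore but lie outside the 42 were listed by role, without the APC/C. Of all genes tested, 24.1% were lower and 23.3% higher. In this list 15 of 25 were lower (60.0%) and 1 was higher, with a median log2 fold change of -1.07. The largest falls were those of Kif2c, the microtubule depolymerase MCAK, of the kinase Plk1 and of Kntc1, which encodes ROD. Kif2c had 285, 202 and 200 normalized counts in Rnf40+/+ and 25.5, 23.0 and 14.2 in Rnf40-/- (-3.41 ± 0.25, adjusted p = 6.48e-07). The log2 fold change was -3.12 for Plk1 and -2.98 for Kntc1. In the complex of ROD, ZW10 and Zwilch, Zw10 had 307, 336 and 353 normalized counts in Rnf40+/+ and 303, 326 and 295 in Rnf40-/-, which overlap (-0.11 ± 0.10, adjusted p = 0.415).

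The 1 partner gene that was higher was Nde1, which encodes a dynein regulator that CENP-F binds. Nde1 had 1175, 1254 and 1206 normalized counts in Rnf40+/+ and 1596, 1648 and 1580 in Rnf40-/-, without overlap (0.41 ± 0.07, adjusted p = 0.000296). Of the 14 APC/C genes, whose product is the target of the checkpoint, 5 were lower (35.7%, against 24.1% of all genes tested) and none higher, and the median log2 fold change was -0.12. Their range ran from -0.97 for Anapc11 to 0.20 for Anapc13, which did not pass the test.

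Beside the checkpoint genes, 10 of 10 listed mitotic kinesins were lower (median log2 fold change -2.01). That list leaves out Kif2c and Kif18a, kinesins counted with the partners. Kif2c fell, and Kif18a did not pass the test (0.18 ± 0.15, adjusted p = 0.359). Of 15 replication licensing genes 11 were lower and 1 higher (median -1.46). Of all genes tested, 24.1% were lower and 23.3% higher. By library, the median difference of the constitutive centromere genes from the Rnf40+/+ mean lay between -1.64 and -1.17 in Rnf40-/-, that of the outer kinetochore between -1.38 and -0.91, and that of the checkpoint genes between -1.88 and -1.46. The range of the centromere genes overlaps both others, those of the outer kinetochore and the checkpoint do not overlap, and a difference between roles was not tested.

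**Figure D5:**
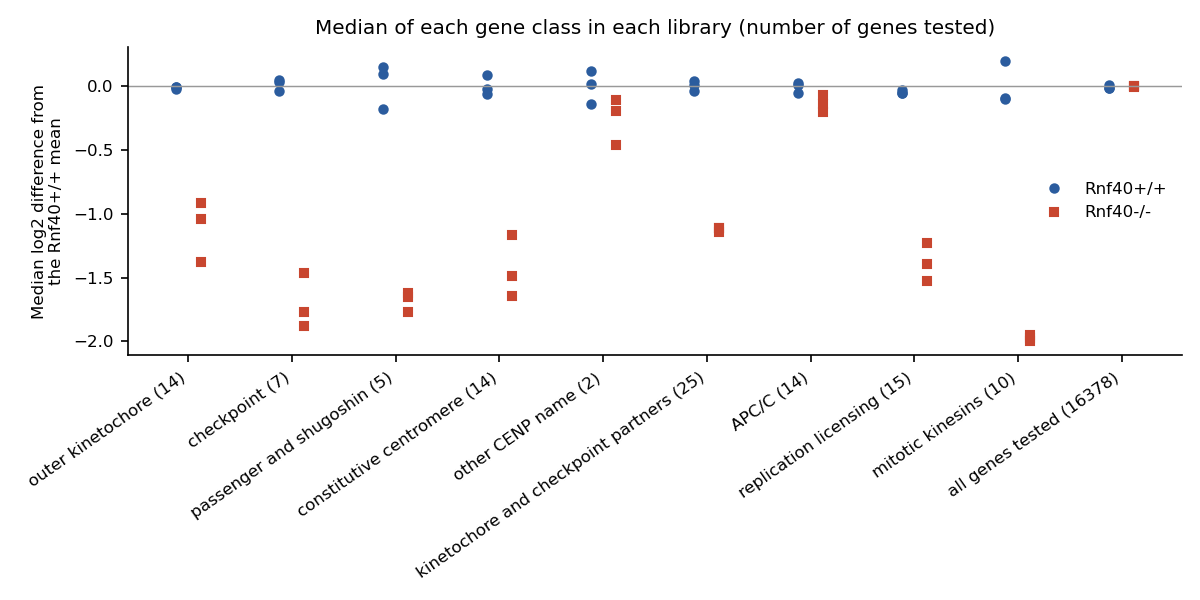
Median over genes of the log2 difference from the Rnf40+/+ mean, for each role, 2 comparison lists, the partners, the APC/C and all genes tested, in each Rnf40+/+ library (circles) and Rnf40-/- library (squares), with the number of genes in brackets. The Rnf40-/- medians of the centromere, outer kinetochore, checkpoint and passenger genes lie between -1.88 and -0.91, whereas those of the APC/C lie between -0.20 and -0.07 and those of all genes at 0.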

How the data were processed

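RNA-seq of 3 Rnf40+/+ and 3 Rnf40-/- libraries was analysed from the deposited table. The authors aligned reads to the mm9 transcriptome and scaled them with DESeq. The deposited signal is thus a normalized count, the reads of a gene over the size factor of its library. The submitters' processing notes name Bowtie2 (version 2.1.0) and DESeq (version 1.14.0). In every library 100% of values above 0 came out as whole reads (tolerance 0.01) once divided by the smallest step. The kit is directional, but the strand setting of the counting is not given in the sources used here.

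Genotypes were compared with limma (version 3.58.1, lmFit and eBayes with trend) on log2(normalized count + 1), with a single term for genotype and p-values adjusted by Benjamini-Hochberg over 16378 genes that passed filterByExpr of edgeR (version 4.0.16) on the recovered reads. Fold changes are on that scale, which understates the change of low genes, and carry the standard error of limma. Percentages compare means of normalized counts. The adjusted p threshold was 0.05. Partner ratios are described without a test. The alternatives were the size factors and the Wald test of DESeq2 (version 1.42.0), upper-quartile scaling, edgeR with TMM, no filter or at least 10 reads in every library, pseudocounts of 0.1 and 10, a replicate block and each library left out. Simulated counts gave every gene the same dispersion and changed 200 of 16378 genes, 100 at each fold. There limma recovered 86 genes changed by a fold of 2 and 98 changed by a fold of 4, with 10 false calls. In the real comparison 24.1% of genes tested were lower and 23.3% higher, so these rates need not hold for it. Same-numbered libraries did not deviate together, with correlations of 0.012, 0.017 and 0.021.

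Genes and lists were chosen with earlier results of these data known. Values in every library are given for the genes with the largest and smallest change of each role, those that did not pass and those in ratios. Of genes outside the 42, the 3 partners with the largest fall and those higher are named by rule. Mki67, Cdc20, Zw10, Kif18a, Mlf1ip, Itgb3bp, the APC/C genes, the endothelial markers and neighbours that share exons were named after their values were seen. Ska2 has a second possible symbol, 1110001A07Rik, which was not used and had a log2 fold change of -0.95. Positions and lengths (longest transcript) come from the mm9 annotation, and Ska3 has none there. Coding transcripts of the genes were compared with all others by BLAST (version 2.17.0, matches of at least 50 bases at 95% identity). Beside the matches given above, Ska2 had some to 2 genes (up to 150 bases) and Casc5 to 1 (117 bases). Promoter letters were read from RefSeq (GRCm38.p6), in 32851 windows. Floors cover counting error only. The ChIP-seq of the study was not analysed here.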

Additional observations from a re-analysis of the deposited data

How the results depend on the processing

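Under 15 alternative settings, 37 of the 42 genes kept their direction and their side of the threshold in every setting that included them. The setting with at least 10 reads in every library leaves out 7 of the 42. Cenpc1, which did not pass the test, turned from 0.02 to -0.048 without Rnf40-/- replicate 2, and ranged from -0.048 to 0.068 over the libraries left out. Cenpp, Cenpw, Spc24 and Ska3 kept their direction but missed the threshold when certain libraries were left out, and Cenpw and Spc24 also without the gene filter (adjusted p = 0.0623 and 0.0556 in limma). The count of genes lower was 34 in limma, 33 with edgeR, 33 with DESeq2, 32 with no filter and 27 of 35 with at least 10 reads in every library. Over all genes tested, 3955, 3940 and 3726 of 16378 were lower in limma, edgeR and DESeq2. That count was 3844 of 22545 with no filter and 3855 of 14912 with at least 10 reads in every library. Among the 42, leaving out 1 library gave between 30 and 33 lower, and 0 higher each time. Over all genes it gave 3342 to 3896 lower and 3051 to 3817 higher. The median log2 fold change over the genes moved to -1.26 with at least 10 reads in every library (35 genes) and to -1.22 with a pseudocount of 10, which also shrank the ratio of Ska1 to Ska2 from -1.40 to -0.42, and lay between -1.55 and -1.34 when a library was left out. The libraries share only a number, so the replicate block is no pairing from the design. With the replicate block 34 genes were lower, no call among the 42 changed, and over all genes 4196 were lower against 3955 without it. Depth limits the lowest genes: 7 of the 42 had fewer than 10 reads in a library.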
